A study of Mus musculus with 8 samples.

Results

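Homing receptors and adhesion integrins are the surface proteins with which blood cells enter, stay in or leave the bone marrow and the lymphoid organs. The set described here held 8 genes, of 18193 genes tested: the chemokine receptors Cxcr3, Cxcr4, Ccr7 and Ccr10, the sphingosine-1-phosphate receptor S1pr1, and the integrin chains Itga4, Itgal and Itgb7. They were chosen by name, with every probe set whose listed gene symbol was a member. That gave 13 probe sets: 5 for Itga4, 2 for Itgal and 1 for each of the other 6 genes. A probe set is a group of short probes on the array that together report 1 transcript.

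The arrays measured total RNA of cells sorted from mouse bone marrow as positive for the surface marker Sca1 and negative for lineage markers (Sca1+Lin-). There were 3 samples from wild-type (WT) mice and 5 from Sca1-MALT1 transgenic mice, which carry a transgene called after the promoter of Sca1 and the oncogene MALT1. The labels state no strain, age or sex, nor whether each sample was a separate animal, so the p-values cover sample-to-sample spread that could be technical. Array medians lay between 6.4 and 6.48 on the log2 scale, and arrays correlated with one another at r from 0.956 to 0.983. The label was set beside marker genes of cell types. The gene of Sca1 itself was not among them, and the label does not name Kit. Kit, the receptor of stem and progenitor cells, averaged 10.11 in WT, while genes of mature lineages also gave high signals, such as S100a8 of neutrophils at 14.74, Ms4a1 of B cells at 12.55 and Cd3e of T cells at 9.08. Signals cannot be ranked between genes.

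As background, chemokine receptors are G protein-coupled receptors that steer cells along gradients of their ligands. CXCR4 holds stem cells, B cell precursors and plasma cells near CXCL12 in the marrow, CXCR3 guides effector T and NK cells to interferon-induced chemokines, CCR7 leads lymphocytes into lymph nodes, and CCR10 guides IgA plasma cells to mucosal epithelium. S1PR1 lets cells leave tissue toward the sphingosine-1-phosphate of blood. Integrins are pairs of an alpha and a beta chain: alpha 4 with beta 1 binds VCAM1 and fibronectin, alpha 4 with beta 7 binds MAdCAM1 of gut vessels, and alpha L with beta 2 (LFA-1) binds ICAMs. The comparison asks how the levels of these transcripts differ between the genotypes.

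None of the 8 genes passed the test. The test was limma's two-sided fit with p-values adjusted over all genes by Benjamini-Hochberg at a threshold of 0.05, which 16 genes, 0.0879% of those tested, passed. Cxcr3 was 1.58 higher in mean on the log2 scale in Sca1-MALT1, and Ccr10 1.72 higher from a WT signal not shown to exceed background, whereas Ccr7 and S1pr1 differed by under 0.2 with wide intervals. An unadjusted p under 0.05 was given to Cxcr3 alone, 12.5% of the members, against 10.2% of all genes. In all 8 genes the arrays of the groups overlapped, while they did not overlap in 7.13% of all genes (4.27% higher and 2.87% lower in Sca1-MALT1). The median difference of the members was 0.31, with 5 higher and 3 lower, against 0.004 over all genes. A bulk signal cannot tell fewer cells of a type from less RNA per cell.

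**Figure D1:**
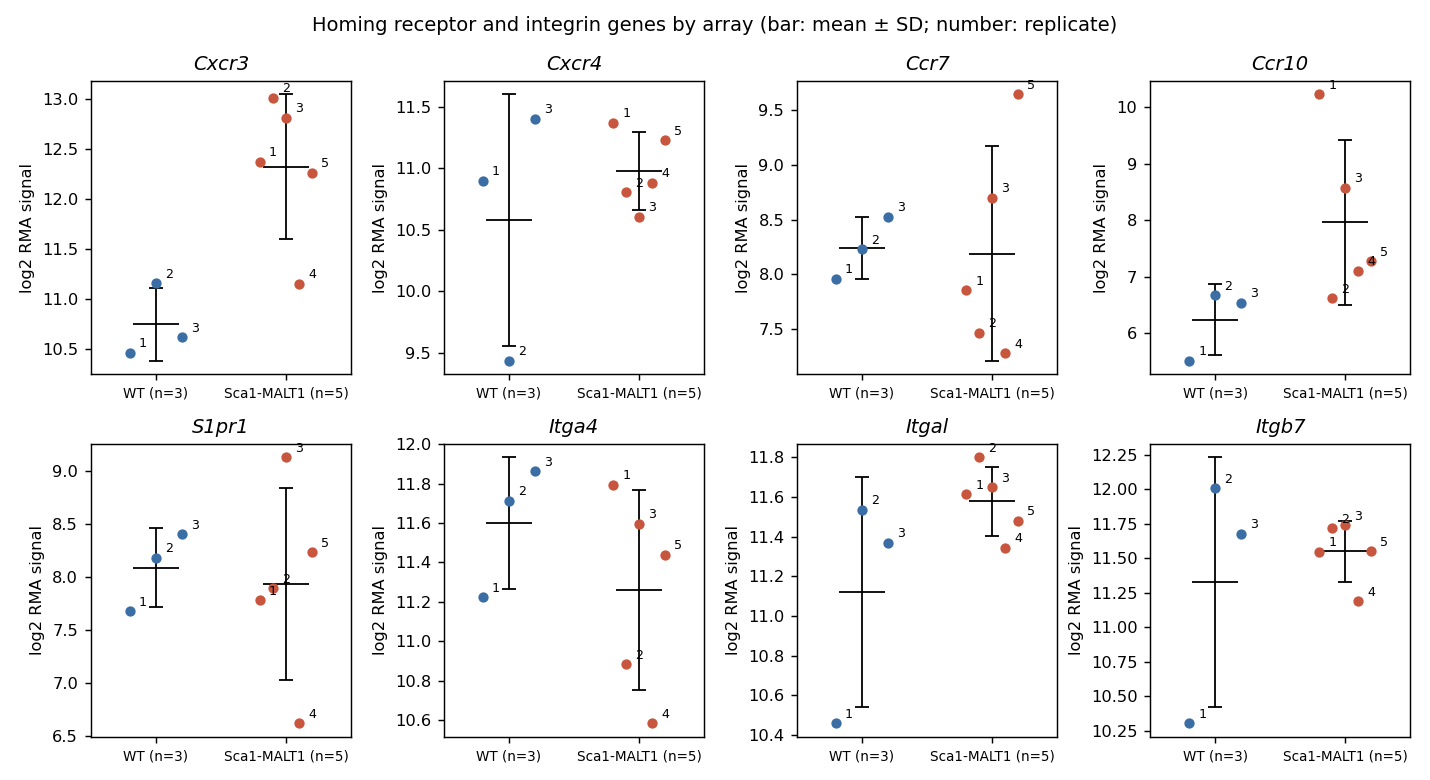
Log2 RMA signal of the 8 genes (1 panel each, brightest probe set) in the 3 WT (blue) and 5 Sca1-MALT1 (red) arrays, with group mean and SD as black bars and the replicate number beside each point. Each axis has its own range and does not start at 0. Cxcr3 is above all WT arrays in 4 Sca1-MALT1 arrays, and replicate 4 lies level with WT replicate 2.

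Cxcr3, the receptor for CXCL9, CXCL10 and CXCL11 on activated T and NK cells, had the lowest p of the members. Its log2 signal was 10.46, 11.16 and 10.62 in WT replicates 1 to 3. In Sca1-MALT1 replicates 1 to 5 it was 12.37, 13.01, 12.81, 11.15 and 12.26. Thus 4 of the 5 transgenic arrays lay above every WT array, and replicate 4 fell inside the WT range. The mean was 10.75 ± 0.36 (SD, n = 3) in WT and 12.32 ± 0.72 (n = 5) in Sca1-MALT1. The difference was 1.58 (SE 0.40, 2.98-fold, 95% interval 0.67 to 2.48, limma adjusted p = 0.271), and the exact two-sided permutation test over the 56 splits of the arrays gave p = 0.0536, where the smallest possible is 0.0179. Without Sca1-MALT1 replicate 4 the difference was 1.87 (limma adjusted p = 0.0525).

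T and NK cell marker lists shared with Cxcr3 the low value of Sca1-MALT1 replicate 4, but not the order of the other transgenic arrays throughout. The mean signal of 12 T cell genes lay between 8.72 and 9.04 in WT and between 9.54 and 9.93 in 4 Sca1-MALT1 arrays, but at 8.58 in replicate 4, and was highest in replicate 5. The mean of 10 NK cell genes, highest in replicate 2 as Cxcr3 was, read 8.78 to 9.07 in WT, 9.17 to 10.34 in those 4 arrays and 8.25 in replicate 4. Of the T cell list 11 of 12 genes and of the NK list 7 of 10 genes had a higher mean in Sca1-MALT1, and none passed the threshold. At an unadjusted p under 0.05 by limma were 4 of the 12 T cell genes and 6 of the 10 NK genes, against 10.2% of all genes. Of these 6 NK genes 1 was lower in Sca1-MALT1: Gzma, a granule protease of killer cells, at -2.76 (limma adjusted p = 0.295). The other NK genes with a lower mean were Eomes at -0.54 and Ncr1 at -0.41. The dimmest genes of the lists were Cd8a at 6.83 and Ncr1 at 6.97 over all arrays, and Gzma and Ncr1 read as low as 5.88 and 5.81 in Sca1-MALT1 replicate 4, below the array medians. The part of such cells in the Cxcr3 signal was not tested.

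The genes whose profile over the 8 arrays lay nearest to that of Cxcr3, out of all genes tested, were Tbx21, Il2rb and Chic1. Likeness was measured as the root mean square difference of the mean-centred log2 values, which was 0.26 for Tbx21, 0.26 for Il2rb and 0.28 for Chic1 against a median of 0.97 over all genes. Tbx21 encodes T-bet, a transcription factor of T helper 1 and NK cells, and read 8.73 to 8.86 in WT and 10.29, 11.07, 10.73, 8.72 and 10.06 in Sca1-MALT1 replicates 1 to 5. Il2rb, the beta chain of the IL-2 and IL-15 receptors, read 7.92 to 8.35 in WT and 9.20, 10.37, 9.63, 8.10 and 9.22 in Sca1-MALT1. Both shared with Cxcr3 the highest value in replicate 2 and the lowest transgenic value in replicate 4, which follows from their choice by likeness. Tbx21 and Il2rb also belong to the NK cell list above, so they are not separate observations. The 3 probe sets of Chic1 disagreed in sign.

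Cxcr3 lies on the X chromosome, and the 5 transgenic samples differed in Xist, the RNA of the inactive X. Xist read 13.09 in Sca1-MALT1 replicate 2 and 12.46 in replicate 4, and between 6.20 and 6.58 in the other 6 arrays, all 3 WT arrays among them. The arrays with high Xist held both the highest and the lowest Cxcr3 value of the transgenic group. Among the 6 arrays with low Xist, 3 per genotype, Cxcr3 differed by 1.74 (SE 0.24, limma adjusted p = 0.0571). This split was chosen after the values were seen, and it leaves out Sca1-MALT1 replicate 4, the single transgenic array inside the WT range of Cxcr3.

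The sequence before the start of Cxcr3 is shown because this member had the lowest p and because MALT1 signals to NF-kB. RefSeq promoters of build GRCm38.p6 matched 4 of the 8 members, Cxcr3, Cxcr4, Itga4 and Itgb7. The 250 bases upstream of Cxcr3, at chrX:101734148-101734397 on the minus strand, are printed with each GGAA core of ETS factors, or its reverse complement, in capitals.
Cxcr3: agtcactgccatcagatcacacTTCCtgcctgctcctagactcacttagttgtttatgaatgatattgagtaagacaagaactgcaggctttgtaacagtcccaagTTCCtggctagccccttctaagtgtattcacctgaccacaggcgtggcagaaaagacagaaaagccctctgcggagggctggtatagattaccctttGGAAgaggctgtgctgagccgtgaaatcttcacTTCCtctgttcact
The window held 4 GGAA cores on either strand, and those of Cxcr4, Itga4 and Itgb7 held 1 each, where 93.4% of 32851 promoter windows of the same length held at least 1. The kB motif had no match in any of the 4 windows, where 3.9% of all windows had a match. These are letter matches and no evidence on binding.

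Ccr10, the receptor for CCL27 and CCL28, spread widely among the transgenic arrays. It read 5.51, 6.67 and 6.54 in the WT arrays, around the array medians, where a signal cannot be told from background. The Sca1-MALT1 arrays read 10.23, 6.62, 8.58, 7.10 and 7.27 in replicates 1 to 5. Replicate 1 stood highest, replicate 3 next, and replicate 2 lay inside the WT range. The difference of the deposited values was 1.72 (SE 0.78, 95% interval -0.06 to 3.50, limma adjusted p = 0.503, exact permutation p = 0.125). No fold is given, since the WT mean of 6.24 ± 0.64 (n = 3) lies below the array medians. Without Sca1-MALT1 replicate 1 the difference was 1.15.

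Plasma cell genes were higher in all 5 transgenic arrays, also in replicate 2, where Ccr10 lay inside the WT range. The mean of 12 plasma cell genes was 8.96 to 9.07 in WT and 12.37, 10.68, 11.26, 11.72 and 11.82 in Sca1-MALT1 replicates 1 to 5, so replicate 1 was highest and replicate 2 lowest of the transgenic group in this list and in Ccr10 alike. All 12 genes had a higher mean, with Jchain past the threshold and Igha, the IgA heavy chain, at 9.35 in WT and 15.28 in Sca1-MALT1 (limma adjusted p = 0.109). Thus 1 of the 12 passed, against 0.0879% of all genes. All 12 had an unadjusted p under 0.05 by limma, against 10.2%, and groups did not overlap in 9, against 7.13%. The order of the other 3 arrays was not the same, since Ccr10 was second highest in replicate 3 and the plasma cell list second lowest. The part of plasma cells in the Ccr10 signal was not tested. Nearest in profile to Ccr10 were St6gal1, a sialyltransferase, at a root mean square difference of 0.64, F9, coagulation factor IX, at 0.64, and 9130208D14Rik at 0.66, against a median of 1.38 over all genes. The distances to Ccr10 are wider than those to Cxcr3. That the 3 genes shared the top place of replicate 1 follows from their choice by likeness.

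Cxcr4, the marrow retention receptor, overlapped fully between the genotypes. It read 10.90, 9.43 and 11.40 in WT and 11.37, 10.81, 10.61, 10.88 and 11.23 in Sca1-MALT1 replicates 1 to 5. WT replicate 2 was the lowest of all arrays, and all transgenic values lay between it and WT replicate 3. The difference was 0.40 (SE 0.41, 95% interval -0.53 to 1.33, limma adjusted p = 0.789, exact permutation p = 0.536), and without WT replicate 2 it turned to -0.17. The interval includes a change of more than 1 log2 unit upward, so equal levels are not shown.

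Its ligand Cxcl12, made by stromal cells of the niche, was measured in the same samples. It read 10.15, 6.22 and 8.22 in WT and 11.01, 9.67, 10.73, 10.37 and 10.96 in Sca1-MALT1. The lowest WT array was replicate 2, as for Cxcr4, and WT replicate 1 lay inside the transgenic range. The difference of 2.35 (SE 0.76) did not pass (limma adjusted p = 0.370). It was 1.36 without WT replicate 2 and 3.32 without WT replicate 1, its 3 probe sets differed by 0.08 to 2.35, and their mean gave 1.55. The 12 endothelial and stromal markers, which include Cxcl12, had means of 6.74 to 7.30 in WT and 6.71 to 7.24 in Sca1-MALT1, and their members went both ways. None passed the threshold. An unadjusted p under 0.05 by limma was given to 9 of the 12, against 10.2% of all genes. Groups did not overlap in 6 of the 12, against 7.13% of all genes. Of these 6, named after their values were seen, Dcn (1.33) and Igfbp5 (2.32) were higher, though the second probe set of either gene was lower in mean, and Eng (-0.55), Kdr (-0.89), Emcn (-1.19) and Plvap (-1.69) were lower. The part of such cells in the Cxcl12 signal was not tested.

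Ccr7 and S1pr1, the receptors for entry into lymph nodes and exit into blood and lymph, showed little mean difference and a wider spread in the transgenic samples. Ccr7 read 7.96, 8.23 and 8.53 in WT and 7.86, 7.47, 8.70, 7.28 and 9.64 in Sca1-MALT1. Transgenic arrays lay on both sides of the WT range, with replicate 5 highest and replicate 4 lowest. The SD was 0.98 (n = 5) in Sca1-MALT1 against 0.28 (n = 3) in WT, and the difference was -0.05 (SE 0.51, 95% interval -1.22 to 1.12, limma adjusted p = 0.987). S1pr1 read 7.67, 8.18 and 8.40 in WT and 7.78, 7.89, 9.13, 6.62 and 8.23 in Sca1-MALT1. Here replicate 3 was highest and replicate 4 again lowest, with a difference of -0.15 (SE 0.48, 95% interval -1.26 to 0.95, limma adjusted p = 0.942). The sign of both differences changed when Sca1-MALT1 replicate 4 was left out, to 0.18 for Ccr7 and 0.17 for S1pr1.

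Klf2, a transcription factor known to control S1pr1 in lymphocytes, was the second nearest gene to Ccr7 in profile (root mean square difference 0.28, median over all genes 0.73). It read 9.90, 10.62 and 10.77 in WT and 10.66, 9.86, 10.78, 9.77 and 11.56 in Sca1-MALT1, so it too was highest in replicate 5 and lowest in replicate 4. That likeness follows from the choice of the nearest genes. The nearest gene to Ccr7 was Zfp711 at 0.28, with probe sets of opposite sign, and the third G530011O06Rik at 0.32. Zfp711 read 3.73 to 6.03 and G530011O06Rik 3.48 to 4.90, below the array medians, where a signal cannot be told from background. Nearest to S1pr1 were Rbm33 at 0.25, Itgae at 0.32 and Gm527 at 0.32, against a median of 0.71. Itgae, the alpha E chain that pairs with beta 7, read 7.17, 7.65 and 8.58 in WT and 6.93, 7.23, 8.36, 5.94 and 7.31 in Sca1-MALT1.

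**Figure D2:**
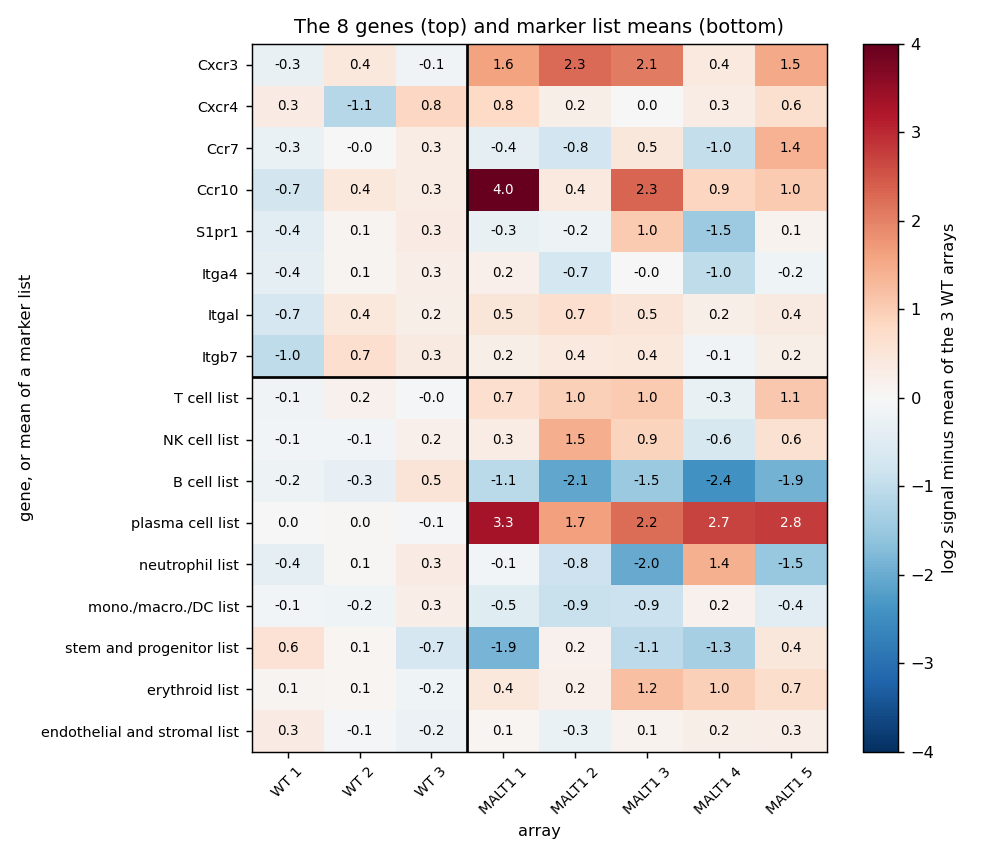
Log2 signal minus the mean of the 3 WT arrays, for the 8 genes (upper rows) and the mean of each marker list (lower rows), in each array (columns; MALT1 stands for Sca1-MALT1, and the number is the replicate). Red is higher and blue lower than the WT mean. By the brightest probe sets, replicate 4 of Sca1-MALT1 is the lowest transgenic array for Cxcr3, S1pr1, Ccr7 and Itga4. It is also the lowest for the T and NK cell lists and the highest for the neutrophil list.

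By the brightest probe set of each gene, Sca1-MALT1 replicate 4 was the lowest of the 5 transgenic arrays in Cxcr3, Ccr7, S1pr1, Itga4, Itgal and Itgb7. It was the lowest of all 8 arrays in Ccr7, S1pr1 and Itga4. In Itga4 probe set 1421194_at replicate 4 read 8.07, above replicate 2 at 7.64, and in 1456498_at replicate 5 was lowest at 4.44. In Itgal probe set 1425367_at replicate 4 read 7.69, above replicates 2 and 3 at 7.36. Replicate 4 read 13.69 in the mean of 12 neutrophil genes. That mean was 11.88 to 12.58 in WT and 10.23 to 12.14 in the other transgenic arrays. Elane, Prtn3 and Mpo of this list read 12.48, 13.22 and 14.53 in replicate 4 and at most 9.73, 11.36 and 12.97 in WT. Among the rest, only Lcn2 was higher in replicate 4 (14.26) than in WT replicate 3 (14.10). The others were higher in WT replicate 3, such as S100a8 at 15.07 against 14.89 and Csf3r at 11.57 against 11.30. The part of neutrophils in the receptor signals was not tested.

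Itga4, the alpha 4 chain, gave different answers by probe set. Its brightest probe set, 1436037_at, read 11.22, 11.71 and 11.86 in WT and 11.80, 10.88, 11.60, 10.58 and 11.44 in Sca1-MALT1. The groups overlapped, with a difference of -0.34 (SE 0.30, 95% interval -1.02 to 0.34, limma adjusted p = 0.754). It was -0.53 without WT replicate 1, -0.21 without WT replicate 3 and -0.17 without Sca1-MALT1 replicate 4, and the mean of the 5 probe sets gave -0.63. Probe set 1421194_at read 8.54, 9.35 and 9.03 in WT and 8.01, 7.64, 8.00, 8.07 and 8.23 in Sca1-MALT1. All 5 transgenic arrays lay below all WT arrays. That difference was -0.98 (SE 0.20), with a limma adjusted p of 0.257 over 45037 probe sets and an exact permutation p of 0.0179, the smallest possible.

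Another probe set of Itga4, 1456498_at, was also lower in every transgenic array. It read 9.11, 9.70 and 9.45 in WT and 8.79, 8.17, 8.63, 7.58 and 4.44 in Sca1-MALT1. Replicate 5 lay far below the other transgenic arrays, and the difference was -1.90 (SE 0.92, limma adjusted p = 0.570 over all probe sets). The remaining pair, 1450155_at and 1427615_at, had means of 4.62 to 6.05 in either group, below the array medians, and differed by 0.19 and -0.09. The sources used here do not give which part of the transcript each probe set covers.

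Itgal, the alpha L chain of LFA-1, was measured by 2 probe sets, both with a higher mean in Sca1-MALT1. The brighter, 1435560_at, read 10.46, 11.54 and 11.37 in WT and 11.61, 11.80, 11.65, 11.34 and 11.48 in Sca1-MALT1. WT replicate 1 lay below every other array, and the other WT values lay within the transgenic range. The difference was 0.46 (SE 0.24, 95% interval -0.09 to 1.01, limma adjusted p = 0.565), and 0.13 without WT replicate 1. The dimmer, 1425367_at, read 6.78, 7.10 and 7.07 in WT and 7.75, 7.36, 7.36, 7.69 and 7.93 in Sca1-MALT1. There every transgenic array lay above every WT array, with a difference of 0.63 (SE 0.16, limma adjusted p = 0.342 over all probe sets, exact permutation p = 0.0357).

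Itgb7, the beta 7 chain that pairs with alpha 4 or alpha E, read 10.30, 12.01 and 11.68 in WT. In Sca1-MALT1 it read 11.55, 11.72, 11.74, 11.19 and 11.55. WT held both the lowest and the highest array, and the transgenic values lay between them. The difference was 0.22 (SE 0.35, 95% interval -0.58 to 1.02, limma adjusted p = 0.873, exact permutation p = 0.732), and -0.29 without WT replicate 1. As for Itgal, replicate 1 was the lowest WT array, and it also had the highest mean of 11 stem and progenitor genes, 10.99 against 9.73 and 10.50 in the other WT arrays. Among the transgenic arrays the stem and progenitor mean was highest in replicates 5 and 2, at 10.85 and 10.57. There Itgb7 read 11.55 and 11.72, where the transgenic arrays ran from 11.19 to 11.74. Itgal read 11.48 and 11.80, where they ran from 11.34 to 11.80. The part of such cells in the integrin signals was not tested.

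**Figure D3:**
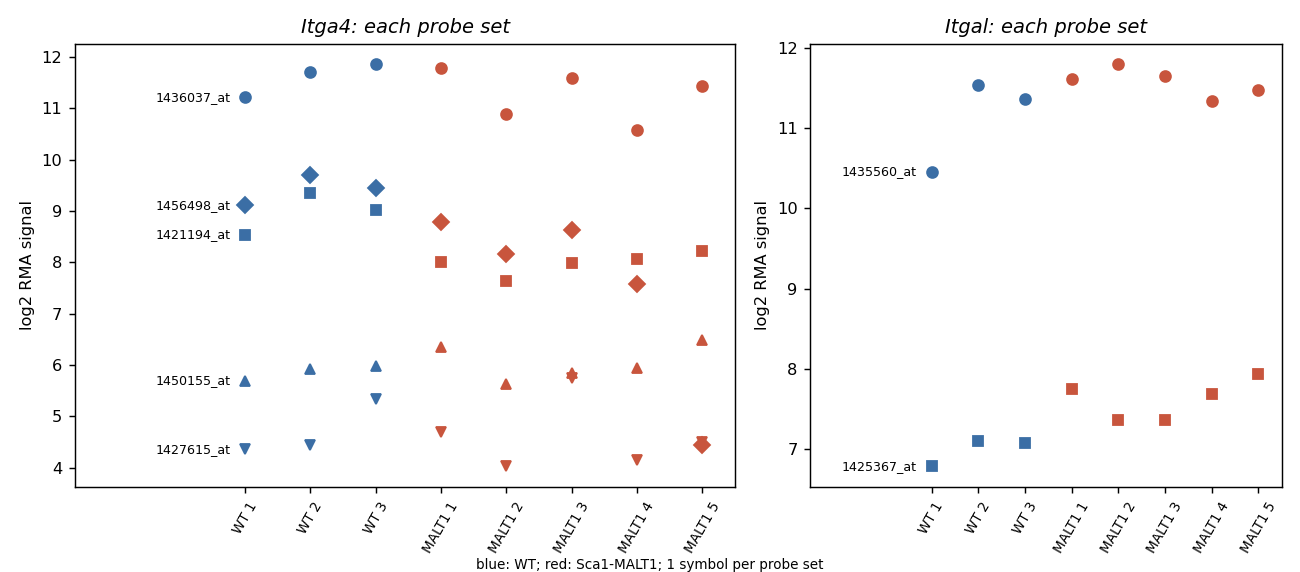
Log2 RMA signal of each probe set of Itga4 (left, 5 probe sets) and Itgal (right, 2 probe sets) in the 8 arrays (WT blue, Sca1-MALT1 red), 1 symbol per probe set. For Itga4 the probe sets 1421194_at and 1456498_at lie lower in all Sca1-MALT1 arrays while the brightest overlaps, and for Itgal the dimmer probe set lies higher in all of them.

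Over all 13 probe sets of the members, 3 had groups that did not overlap, 1 higher (Itgal) and 2 lower (both Itga4), which is 23.1% against 6.83% of all 45037 probe sets. None passed over all probe sets, where 27, 0.06%, did. Probe sets of 1 gene share its RNA and are not separate observations.

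**Figure D4:**
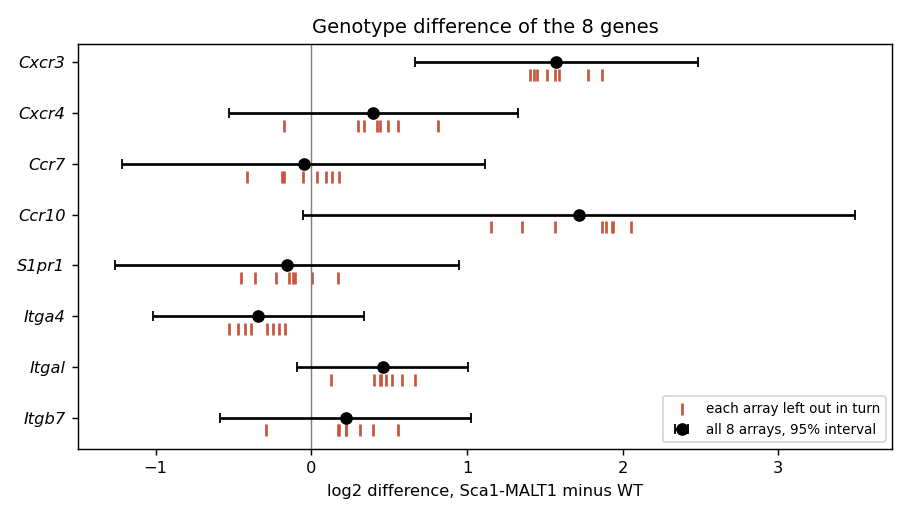
Log2 difference, Sca1-MALT1 minus WT, of the 8 genes with the 95% interval of the limma fit (black), and the difference with each of the 8 arrays left out in turn (red ticks). The interval lies above 0 for Cxcr3 alone, and the ticks fall on both sides of 0 for Cxcr4, Ccr7, S1pr1 and Itgb7.

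The partner chains of these integrins did not pass either. Itgb1, the beta 1 partner of alpha 4, differed by 0.67 (SE 0.25, limma adjusted p = 0.411) and averaged 8.69 ± 0.55 (n = 3) in WT and 9.35 ± 0.25 (n = 5) in Sca1-MALT1. All 6 of its probe sets had a higher mean, by 0.08 to 0.76, and the difference was 0.36 with their mean and 0.37 without WT replicate 1. Itgb2, the beta 2 partner of alpha L, named after its values were seen, differed by 0.47 (limma adjusted p = 0.67), and WT replicate 1 was again the lowest array at 11.69. The median over 20 measured integrin chains outside the set was 0.03, with 11 higher, 9 lower and none past the threshold. Those with the lowest p beside Itgb1 were Itga1, a collagen receptor chain, at 1.19, Itga8 at -0.86 and Itga10 at -0.37. Itga8 and Itga10 read below the array medians in all 8 arrays, where a signal cannot be told from background, and Itga8 was -0.49 without WT replicate 3.

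**Figure D5:**
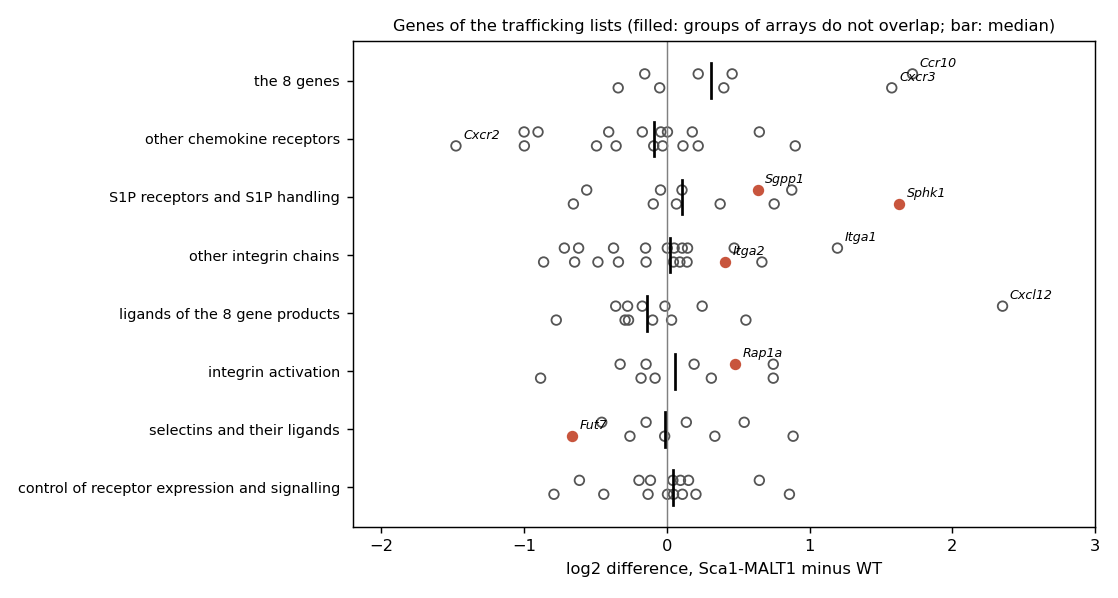
Log2 difference, Sca1-MALT1 minus WT, of every measured gene of the set and of 7 lists of genes that work with it (1 circle per gene, black bar for the list median). Filled circles are genes whose WT and Sca1-MALT1 arrays do not overlap: Sphk1, Sgpp1, Itga2, Rap1a and Fut7.

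The genes that work with the members were described in 7 lists of 102 entries, of which 94 were measured. None of the 94 passed the threshold, 18.1% had an unadjusted p under 0.05 against 10.2% of all genes, and 5.32% had groups that did not overlap against 7.13%. The enzyme Sphk1, which makes sphingosine-1-phosphate, came closest. It read 7.48, 7.37 and 6.66 in WT and 8.48, 9.03, 8.61, 9.16 and 8.71 in Sca1-MALT1. Every transgenic array lay above every WT array, with a difference of 1.63 (SE 0.23, 3.09-fold, limma adjusted p = 0.0673). The second probe set of Sphk1 differed by 0.20, and with the mean of both the difference was 0.91 (limma adjusted p = 0.215).

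The list of 11 genes of sphingosine-1-phosphate turnover and sensing, Sphk1 included, had a median of 0.11, with 7 higher. Sgpp1, a phosphatase that breaks the lipid down, read 9.45 to 9.96 in WT and 10.37 to 10.53 in Sca1-MALT1, without overlap (difference 0.64, SE 0.14, limma adjusted p = 0.212). Mfsd2b, which exports the lipid from red cells and platelets, differed by 0.75, and the receptor S1pr2 by 0.37 (0.20 without WT replicate 1). Erythroid markers had means of 9.66 to 9.95 in WT and 10.04 to 11.06 in Sca1-MALT1. Their part in the Mfsd2b signal was not tested.

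The median over 17 further chemokine receptors was -0.09, with 6 higher and 11 lower. The lowest p belonged to Ccrl2, an atypical receptor that presents chemerin, at 0.65 (limma adjusted p = 0.451), and to Ccr8 at -0.49, which lay below the array medians in all 8 arrays, the neutrophil receptor Cxcr2 at -1.48 and the follicular B cell receptor Cxcr5 at -0.997. Cxcr2 read 11.05 in WT replicate 3 and 10.41 in Sca1-MALT1 replicate 4, and 6.54 to 8.66 in the other 6 arrays. The mean of the neutrophil list was also highest in those 2 arrays, and the part of neutrophils in the Cxcr2 signal was not tested. Without WT replicate 3 the Cxcr2 difference was -0.67. That of Ccr8 was -0.79 without WT replicate 1 and -0.27 without WT replicate 2. That of Cxcr5 was -0.34 without WT replicate 2, -1.61 without WT replicate 3 and -0.59 without Sca1-MALT1 replicate 4. The mean of 12 B cell genes was 9.67 to 10.49 in WT and 7.55 to 8.92 in Sca1-MALT1, with all 12 lower in mean and Igll1, whose 2 probe sets disagreed in sign, and Vpreb1 past the threshold. Thus 2 of the 12 passed, against 0.0879% of all genes. An unadjusted p under 0.05 by limma was given to 6, against 10.2%, and groups did not overlap in 4, against 7.13%. The part of B cells in the Cxcr5 signal was not tested.

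The 12 measured ligands of the 8 receptors and integrins had a median of -0.14, with 4 higher and 8 lower. Next to Cxcl12 the lowest p belonged to Icam2 at -0.27, Ccl28 at -0.17, whose probe sets disagreed in sign, and Icam4 at 0.55. Icam2 was -0.03 without WT replicate 2 and -0.44 without WT replicate 3, Ccl28 was -0.07 without WT replicate 2, and Icam4 ran from 0.31 without WT replicate 3 to 0.84 without Sca1-MALT1 replicate 2. The CXCR3 ligands Cxcl9, Cxcl10 and Cxcl11, named after their values were seen, stood at -0.29, -0.10 and -0.01. Cxcl11 read 5.26 to 5.71, below the array medians in all 8 arrays, where a signal cannot be told from background. Cxcl9 at 5.66 to 7.71 and Cxcl10 at 5.53 to 7.05 lay around the medians, so equal levels are not shown.

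Genes that switch integrins on, sugar ligands of selectins and regulators of receptor signalling were split in direction. Rap1a, a small GTPase that activates integrins, read 12.38 to 12.53 in WT and 12.67 to 13.33 in Sca1-MALT1 without overlap (difference 0.48, SE 0.16, limma adjusted p = 0.377), and its relative Rap1b stood at 0.31, or 0.07 without WT replicate 1 and 0.47 without WT replicate 3. The Rap exchange factor Rasgrp2 stood at -0.88 and the adaptor Fyb at 0.75, and 5 of the 10 genes of this list were higher. Fut7, the fucosyltransferase that completes selectin ligands, read 7.99 to 8.14 in WT and 7.05 to 7.72 in Sca1-MALT1 without overlap (difference -0.66, SE 0.18, limma adjusted p = 0.301). The selectins Selp and Sele stood at 0.88 and -0.26, Sele below the array medians in all 8 arrays, and the sialyltransferase St3gal4 at 0.34, or 0.18 without WT replicate 1 and 0.59 without WT replicate 2. Of 15 regulators, 9 were higher. The RGS proteins Rgs18, Rgs1 and Rgs2, which damp signals of G protein-coupled receptors, stood at -0.79, 0.86 and -0.61. Cd69, which removes S1PR1 from the surface, stood at 0.65. Rgs2 was -1.03 without WT replicate 2 and -0.12 without WT replicate 3.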

How the data were processed

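The authors deposited log2 signals made with RMA (background correction, quantile normalization, summary per probe set), per the submitters' processing notes. Its version and software were not given in the sources used here. That values are log2 follows from their range (2.73 to 15.41). RMA gives no detection call. RNA was amplified before labelling, per the labels' protocols.

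Of 45101 probe sets, 64 controls were left out; 34945 had 1 gene symbol, 932 several and 9160 none listed. Symbols were updated through Entrez identifiers (RefSeq, GRCm38.p6; 18031 of 18193 genes matched). Each gene was represented by its brightest probe set. WT and Sca1-MALT1 were compared with limma 3.58.1 in R 4.3.3 (lmFit, eBayes, genotype only), tested on simulated data beforehand. Probe sets were fitted together in a second limma model. Single values had exact permutation tests.

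The members and gene lists were chosen with earlier results of these data known. Named genes were the members, up to 4 genes per list with the lowest p, and for members whose SD lay above the 90th percentile the 3 nearest genes. Alternatives covered scaling, dim-gene filters, probe set choice, variance model, weights, replicate block, thresholds and each array left out; both fits using Xist were added after seeing the data.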

Additional observations from a re-analysis of the deposited data

Results flagged for a closer look

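In the Sca1-MALT1 group of 5, the highest and lowest array of each of the 13 probe sets was compared with its neighbour. In 1 of them, Itga4 probe set 1456498_at, replicate 5 stood far from the rest at 4.44, against 7.58 to 8.79 in the other 4 arrays; the gap was 0.722 of the range, where 0.71 is the critical value. The brightest Itga4 probe set read 11.44 in the same array, within the range of its group. Chance flags about 1 in 20 groups.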

How the results depend on the processing

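No member passed the threshold under any alternative run. Of 151 member differences over 19 alternative fits, 135 kept their direction and 16 reversed, none past the threshold. The dim-gene filters, the fit of all probe sets and the variance model used the same values, so the difference could not change there. Nor could the mean of probe sets change it for the 6 genes with 1 probe set. These fixed cases are counted among the 135. Ccr10 had no value among the genes brighter than the median. Cxcr3 stayed between 1.403 and 1.99 (limma adjusted p from 0.0525 to 0.574), Ccr10 between 1.15 and 2.45, and Itgal between 0.13 and 0.66. With single arrays left out, Cxcr4 ran from -0.17 (without WT replicate 2) to 0.81, Itgb7 from -0.29 (without WT replicate 1) to 0.56, Ccr7 from -0.41 to 0.18 (above 0 without WT replicate 3 or Sca1-MALT1 replicates 1, 2 or 4), and S1pr1 from -0.45 to 0.17 (above 0 without WT replicate 3 or Sca1-MALT1 replicate 4). Both arrays with high Xist were Sca1-MALT1, so a term for Xist and the Xist-low arrays alone must give the same difference. That shared value was 0.49 for Ccr7, 0.30 for S1pr1 and 0.010 for Itga4, and each reversal is counted for both fits. Array weights gave 0.073 for S1pr1, and the mean of its probe sets gave 0.012 for Ccl28. Sphk1 passed among the brighter genes (limma adjusted p = 0.043, fewer genes tested) and with array weights (0.0481). The cause of the changes under Xist, array weights and probe set means was not tested.

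Over all genes, 16 passed in the main comparison, and 27 with all probe sets, 28 with array weights, 29 with the Xist term, 59 in the Xist-low arrays, 8 at a threshold of 0.01 and 38 at 0.1. With single arrays left out it ran from 8 (without Sca1-MALT1 replicate 3) to 38 (without replicate 2), with 10 and 9 without replicates 1 and 5; the cause was not tested. With the replicate number as a block, 0 genes passed by limma (2034 at an unadjusted p under 0.05) and S1pr1 turned to 0.18. The labels do not say that equal numbers share an origin. Same-numbered arrays correlated at -0.22, -0.04 and 0.01 in their deviations from the group means, and arrays of unlike number at -0.24 to 0.22. So few arrays cannot decide whether equal numbers share an origin. The number of arrays limits the precision.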
